A study of Homo sapiens with 3 samples.

Results

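CXCR4, TNFRSF1A and JADE2 were examined in the wild-type MECOM peak list of a chromatin immunoprecipitation experiment with sequencing (ChIP-seq). The 3 genes were chosen by the number of peaks assigned to each, 3, and then by the fold enrichment of the highest of these. Together they hold 9 of the 3462 peaks and are 3 of the 3133 genes with a peak. The experiment used HEK293T, a human embryonic kidney cell line, and an antibody to the AM tag, a short peptide fused to the introduced protein. Cells carried the empty pMYS-IG vector (group Vector), tagged wild-type MECOM (group WT) or the tagged R750W form (group R750W), with 1 library in each. The peak list carries the name of group WT, and its link to that library rests on the name. With 1 library in group WT, no value has a replicate. Neither the Vector nor the R750W library was analysed here, so no groups were compared and the signal of the antibody in vector cells is unknown. MECOM was supplied from a construct in a kidney-derived line, which limits it as a model of the blood cells that the study concerns.

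MECOM, whose short form is called EVI1, is a zinc finger transcription factor of blood stem cells that is overexpressed in a subset of myeloid leukaemias. CXCR4 is the G protein-coupled receptor for the chemokine CXCL12 and holds blood stem cells in the bone marrow. TNFRSF1A encodes TNF receptor 1, which recruits the adaptor TRADD and from there activates NF-kappaB or triggers cell death. JADE2 is a PHD finger protein and a scaffold of the histone acetyltransferase complexes built on KAT7, also called HBO1. The receptors answer signals from outside the cell, while JADE2 works on chromatin.

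Of the 10 RefSeq promoter windows of the 3 genes, 3 overlapped a peak, against 4.45% of all 35116 windows. The genes were chosen for having peaks, so nothing is read from that share. A window runs from 250 bases before a RefSeq transcript start to 50 after it. Each gene has 1 of these 3 windows, and its 250 bases before the start are shown because they are the promoter sequence that the peaks cover. Sequences are from RefSeq on GRCh38.p14, 5′ to 3′ on the gene's strand, and capitals mark the bases inside the peak.
CXCR4, minus strand, chr2:136118150-136118399: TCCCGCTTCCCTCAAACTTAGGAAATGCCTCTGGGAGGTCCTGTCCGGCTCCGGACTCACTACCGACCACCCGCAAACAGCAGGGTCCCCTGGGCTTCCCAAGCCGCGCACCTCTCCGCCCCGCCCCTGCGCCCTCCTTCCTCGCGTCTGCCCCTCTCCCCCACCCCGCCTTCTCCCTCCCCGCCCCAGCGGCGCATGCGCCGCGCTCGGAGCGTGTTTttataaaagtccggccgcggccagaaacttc
TNFRSF1A, minus strand, chr12:6342077-6342326: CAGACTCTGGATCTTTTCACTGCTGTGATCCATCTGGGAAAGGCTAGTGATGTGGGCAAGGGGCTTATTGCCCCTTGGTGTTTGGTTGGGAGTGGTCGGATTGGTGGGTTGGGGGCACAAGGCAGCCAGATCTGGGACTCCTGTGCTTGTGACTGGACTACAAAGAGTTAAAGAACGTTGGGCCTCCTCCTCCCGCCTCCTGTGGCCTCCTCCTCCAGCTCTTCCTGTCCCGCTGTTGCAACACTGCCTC
JADE2, plus strand, chr5:134525858-134526107: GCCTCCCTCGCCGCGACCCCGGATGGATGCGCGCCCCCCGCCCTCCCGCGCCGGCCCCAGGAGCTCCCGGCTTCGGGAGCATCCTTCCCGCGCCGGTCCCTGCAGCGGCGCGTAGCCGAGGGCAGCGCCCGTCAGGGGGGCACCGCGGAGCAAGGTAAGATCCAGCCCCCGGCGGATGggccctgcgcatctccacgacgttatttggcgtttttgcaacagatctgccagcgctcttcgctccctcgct
The peak covered 219 of the 250 bases at CXCR4, all 250 at TNFRSF1A and 178 at JADE2.

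The 3 peaks of CXCR4 lay on both sides of its start, and the middle one was the highest of the 9. CXCR4 (ENSG00000121966) spans chromosome 2 from 136114349 to 136118165 in hg38 and is read on the minus strand. Its highest peak, from 136118181 to 136118504, ended 16 bp upstream of the deposited gene start. It had 22 fragments, an expected background of 2.37 fragments and a fold enrichment of 6.82 (95% interval 4.39 to 10.2). Fold enrichment is read here as the fragments at the peak plus 1, divided by the expected background plus 1, so it is lower than the plain ratio of the fragments to the background. Its interval is the exact Poisson interval of the fragments put through the same formula. The fragments and backgrounds were worked out from the deposited values under this formula, not counted from reads. The peak caller MACS2 usually gives these values at the highest point of a peak, so the fragments need not be all those over its width. The library behind the background is not named in the sources used here. A wider upstream peak of 688 bp, from 136118804 to 136119491, reached 4.75-fold (2.79 to 7.63) with 15 fragments and the same background. The peak inside the gene, from 136117340 to 136117618, reached 3.51-fold (2.06 to 5.65), also with 15 fragments but a background of 3.56. It lay 547 to 825 bp into the gene and 251 bp past a second RefSeq start, at 136117869. The 3 intervals overlapped, and the order of the peaks was not tested. Gaps of 299 and 562 bp separated the peaks. When peaks less than 1000 bp apart were merged, CXCR4 had 1 peak, and at a q of at most 1e-05 it also had 1.

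TNFRSF1A had its peaks across the gene start and well into the gene. TNFRSF1A (ENSG00000067182) spans chromosome 12 from 6328757 to 6342114 on the minus strand. The peak across the start, from 6342036 to 6342345, reached 6.30-fold (3.76 to 10.0) with 16 fragments. Its background, 1.70 fragments, was the lowest in the list and was shared by 422 peaks. The highest peak of the gene, from 6336373 to 6336866, lay 5248 to 5741 bp downstream of the start and reached 6.66-fold (4.24 to 10.0) with 21 fragments and a background of 2.30. The peak between them, from 6340399 to 6340674, reached 4.04-fold (2.37 to 6.49) with 15 fragments and a background of 2.96. The peak farthest from the start thus had a fold near that of the one across it, with intervals that overlapped almost wholly. RefSeq lists 1 start for this gene, 5210 bp from the nearest edge of the highest peak. At a q of at most 1e-05 the gene had 2 peaks, and merging left all 3 separate.

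JADE2 had all its peaks inside the gene, the first and second among its alternative starts and the last past them. Their folds were the most even of the 3 sets. JADE2 (ENSG00000043143) spans chromosome 5 from 134524312 to 134583230 on the plus strand. Its peaks lay from 134524472 to 134524896, from 134525748 to 134526035 and from 134527088 to 134527628. The first reached 5.56-fold (3.21 to 9.08) with 14 fragments and the lowest background, 1.70. The second reached 6.33-fold (3.84 to 9.93) with 17 fragments and a background of 1.84. The last reached 6.37-fold (4.10 to 9.50) with 22 fragments and a background of 2.61. The highest was 1.15 times the lowest, against 1.94 times at CXCR4 and 1.65 times at TNFRSF1A, and the intervals at each gene overlapped. Such evenness was not particular to JADE2. Other genes with 3 peaks had folds at least as even, among them PPP1R15A (6.08, 6.07 and 5.40) and SDC2 (4.82, 4.57 and 4.55). RefSeq lists 6 starts of JADE2, from 134524009 to 134526632. The first peak lay 157 bp past the start at 134524315, the second ended 73 bp before that at 134526108, and the last began 456 bp past that at 134526632. All 3 JADE2 peaks passed a q of 1e-05, and 2 remained when neighbours less than 1000 bp apart were merged. No exon positions were used here, so the 9 peaks were not placed on exons or introns.

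**Figure D1:**
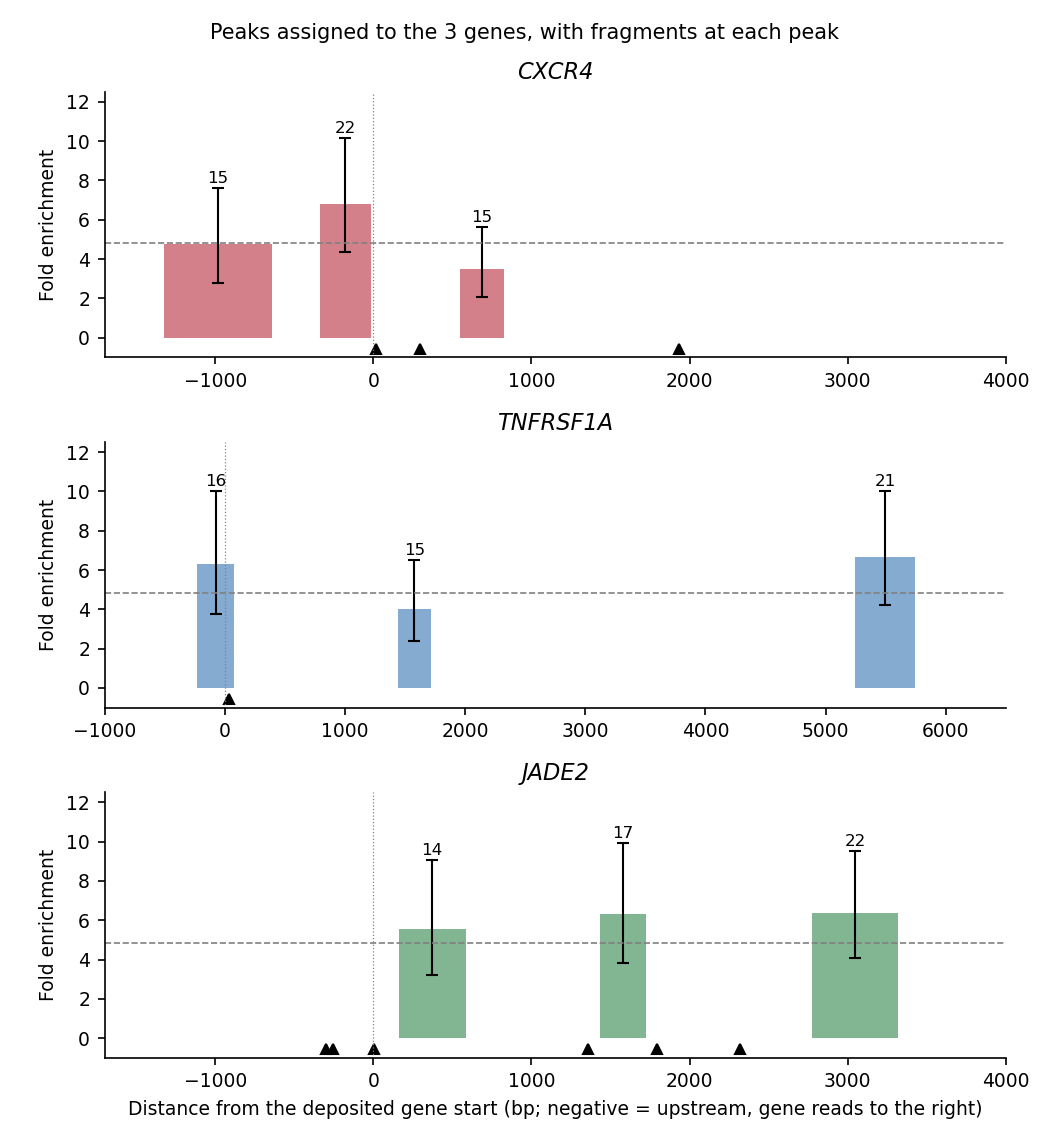
Fold enrichment (vertical axis) of the 9 peaks against distance in bp from the deposited gene start, 1 panel per gene. Box width is the peak's extent, bars are 95% Poisson intervals, the number is the fragments, triangles are RefSeq starts and the dashed line is the median fold of the list, 4.82; every interval reaches that line, and the JADE2 peaks are the most even.

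The intervals of the 9 peaks overlapped one another, and differences among the peaks were not tested. Their folds ran from 3.51 to 6.82 with a median of 6.30, and 6 of the 9 were above the median of the whole list, 4.82. None of the 9 intervals lay wholly above that median. Fragments ran from 14 to 22 against a median of 18 in the list (quartiles 15 and 22), and backgrounds from 1.70 to 3.56 against a median of 2.92. In the authors' deposited table their −log10 q ran from 2.58, at the CXCR4 peak inside the gene, to 9.98, at the CXCR4 peak before the start. Of the 9 peaks, 6 passed a −log10 q of 5, against 54.8% of all peaks. The genes were chosen by the fold of their highest peak, and q rests on the same fragments and background. Nothing is therefore read from the counts above the median fold or past this q. With so few fragments many peaks shared their values exactly. The first JADE2 peak had the same fold and p-value as 60 other peaks, the start peak of TNFRSF1A as 43 others and the highest CXCR4 peak as 12 others.

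**Figure D2:**
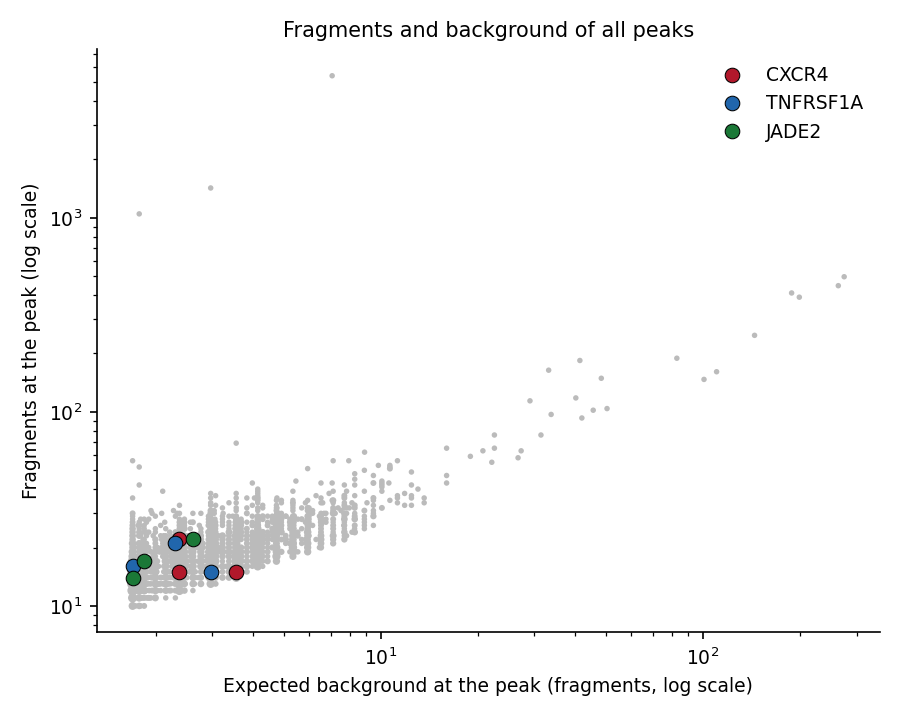
Fragments at each peak (vertical, log axis) against expected background in fragments (horizontal, log axis) for all 3462 peaks in grey, larger dots for shared values, with the 9 peaks in colour. The coloured peaks sit among the bulk, at 14 to 22 fragments and backgrounds of 1.70 to 3.56.

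By the deposited distance, which runs from the gene start to the lower-coordinate edge of a peak, 5 of the 9 peaks lay within 1000 bp of the start, against 55.7% of peaks with a gene. These were the 3 of CXCR4, the start peak of TNFRSF1A and the first of JADE2. Within 500 bp of a RefSeq start lay 6 of the 9, against 49.1% of all peaks, and these included all 3 of JADE2. The first share was near that of the list, and the second, over 9 peaks chosen by their number at a gene, was not tested. The next beyond TNFRSF1A was 271733 bp away and assigned to CHD4 (5.93-fold, 3.48 to 9.55), a helicase of the NuRD repressor complex. The next beyond JADE2 was 120817 bp away, at SEC24A (5.11-fold, 3.18 to 7.83), a gene for a coat protein of vesicles leaving the endoplasmic reticulum. No gene other than the 3 was assigned a peak within 100000 bp of theirs. Within 1 Mb lay 4 peaks for CXCR4, 10 for TNFRSF1A and 8 for JADE2, their own included, against a median of 4 over all genes with a peak and of 8 over the named genes with 3.

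Genes with 3 or more peaks were few, 1.09% of those with a peak. There were 2888 genes with 1 peak, 211 with 2, 27 with 3 and 7 with 4, and none of the last had a symbol. Of the 27, 21 had a symbol, and the highest peaks of CXCR4, TNFRSF1A and JADE2 held ranks 1 to 3 among these by construction. Just outside the choice, FBXL14 had a highest peak of 6.30-fold (3.76 to 10.0) and PPP1R15A of 6.08-fold (3.63 to 9.65), against 6.37 (4.10 to 9.50) for JADE2 just inside it. The intervals of these neighbours overlapped almost wholly. The highest peaks of the other 18 named genes lay between 4.10-fold and 6.30-fold (median 5.22).

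From the first base of the first peak to the last base of the last, CXCR4 took 2152 bp, JADE2 3157 bp and TNFRSF1A 5973 bp. In the other 18 named genes this span ran from 1554 bp at DESI2 to 50434 bp at LINC01987, with a median of 11149 bp, and 4 of the 18 were under 6000 bp, a limit just above the TNFRSF1A span that was set after the spans were seen. By the deposited distance, all 3 peaks lay within 10000 bp of the start at each of the 3 genes and at 9 of the other 18. Within 1000 bp they did so at CXCR4 and at 0 of the other 18. All 3 peaks passed a q of 1e-05 at JADE2 and at 3 of the other 18, PPP1R15A, ZFHX4 and POU3F2. These comparisons describe 1 list and were not tested.

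**Figure D3:**
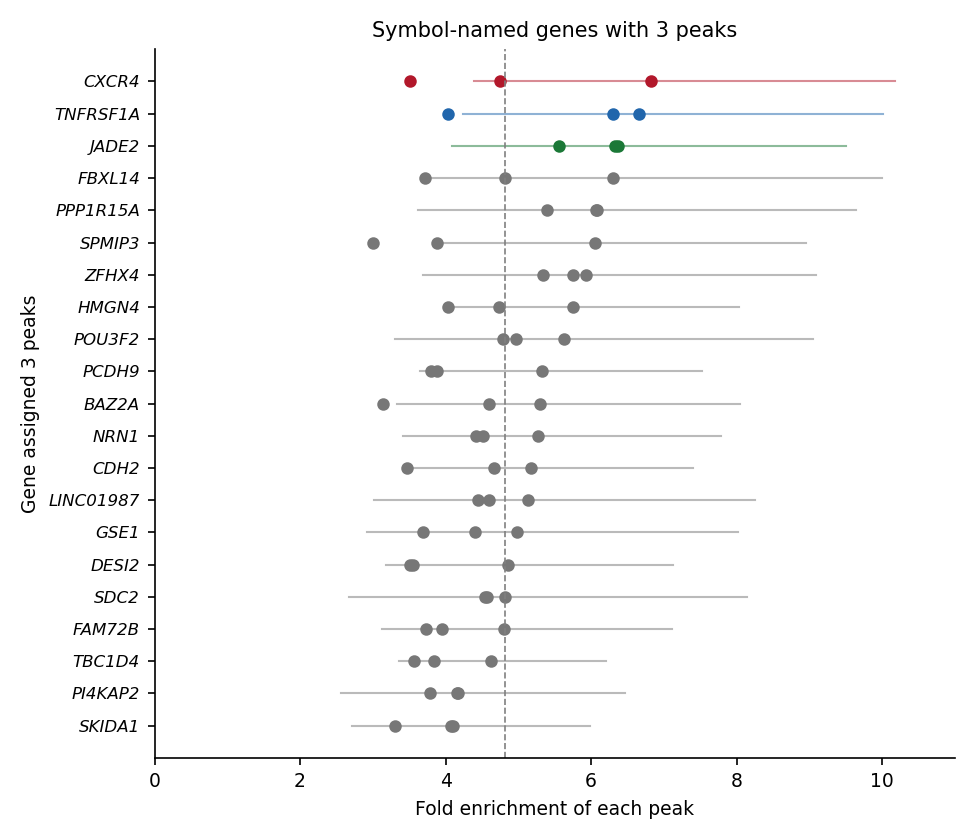
Fold enrichment (horizontal axis) of each peak of the 21 symbol-named genes with 3 peaks (1 row per gene, ordered by the highest peak). Dots are peaks, lines are the 95% Poisson interval of the highest peak and the dashed line is the list median of 4.82; the lines of all neighbouring genes overlap.

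The genes most like each of the 3 were found from their 3 folds in order, as the mean absolute difference on the log2 scale, over 3 peaks in 1 library. Nearest to CXCR4 was FBXL14 (difference 0.07), an F-box protein gene with folds of 6.30, 4.82 and 3.72. CDH2, the gene of N-cadherin, followed at 0.15, with folds of 5.17, 4.67 and 3.47, and then HMGN4 at 0.15, with folds of 5.75, 4.74 and 4.04. Nearest to JADE2 was PPP1R15A (0.06), a regulator of the stress-induced phosphatase, with folds of 6.08, 6.07 and 5.40, followed by ZFHX4 (0.10). Nearest to TNFRSF1A were JADE2 (0.18), FBXL14 (0.19) and PPP1R15A (0.20). All these differences are smaller than the counting error of a single peak.

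Partners of the 3 proteins were counted from 5 lists, leaving out the 3 genes themselves, beside the 9.92% of protein-coding genes assigned a peak. Gene length was not matched. Of 132 partner genes, 15 were assigned a peak (11.4%), close to that share. Their 16 peaks had a median of 4.78-fold, against 4.82 for all peaks. Of the 16, 13 began within 1000 bp of the gene start, against 55.7% of peaks with a gene, which was not tested. The lists were chosen with earlier results of these data known, so they describe and support nothing.

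Around CXCR4, 4 of 31 other genes of CXCL12 and CXCR4 signalling had a peak (12.9%). Neither the ligand gene CXCL12 nor the second CXCL12 receptor, ACKR3, was assigned one. ARRB2, the gene of beta-arrestin 2, which uncouples and internalises the receptor, had 2 peaks near its start, of 5.55-fold (3.53 to 8.35) and 5.19-fold (2.94 to 8.62). GRK5, one of the kinases that phosphorylate such receptors, had 4.17-fold (2.56 to 6.46). ELMO1, which with DOCK proteins activates the GTPase RAC in migration, had 4.83-fold (3.07 to 7.26). PIK3R5, a regulatory subunit of phosphoinositide 3-kinase gamma, had a peak of 4.82-fold (2.67 to 8.14) inside the gene, 40661 bp from its start. At a q of at most 1e-05 the list counted 3 genes in place of 5: ARRB2, ELMO1 and CXCR4, the last chosen for its peaks. The share over all protein-coding genes fell from 9.92% to 5.51% at that limit. Of 22 other chemokine receptor genes, CXCR3 alone (4.55%) had a peak (6.65-fold, 4.28 to 9.92). It lay 14822 bp downstream of the start, outside the gene. With the gene span widened by 1000 bp in place of the assignment, CXCR3 held no peak.

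Around TNFRSF1A, 7 of 38 other genes of TNF receptor 1 signalling had a peak (18.4%), and the ligand genes TNF and LTA had none assigned. TRADD, the adaptor that binds the receptor's death domain, had 5.27-fold (3.42 to 7.79) upstream, at a distance of −244 bp from its start. RIPK1, the kinase of the receptor complex, had 3.18-fold (2.02 to 4.78) across its start, the lowest of the partner peaks, with an interval wholly under the list median. IKBKB, a catalytic subunit of the IκB kinase, had 3.53-fold with 13 fragments and a background of 2.96. NFKBIA, the inhibitor that this kinase marks for destruction, had 5.19-fold (2.94 to 8.62), and NFKB1, an NF-kappaB subunit gene, 4.42-fold (2.68 to 6.93). CFLAR, which encodes the caspase-8 inhibitor c-FLIP, had 4.23-fold (2.77 to 6.21) 2693 bp inside the gene. JUN, a subunit of AP-1, had 4.66-fold (3.03 to 6.90) across its start. With TNFRSF1A the list counted 8 genes, but 4 at a q of at most 1e-05 and 3 among peaks at or above the median fold. These counts include TNFRSF1A, which was chosen for its peaks. The others were TRADD, CFLAR and JUN at the q limit, and TRADD and NFKBIA at the fold limit. Over all protein-coding genes the share with a peak fell from 9.92% to 5.51% and 5.03% under these limits. Of 28 other genes of the TNF receptor superfamily, FAS alone (3.57%) had a peak, across its start (6.12-fold, 3.65 to 9.71). FAS is, like TNFRSF1A, a receptor with a death domain.

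Around JADE2, 2 of 15 other genes of the related acetyltransferase complexes had a peak (13.3%). KAT6A and KAT6B, alternative catalytic subunits of the complexes that BRPF scaffolds build, had 4.73-fold (2.94 to 7.26) across the start and 4.26-fold (2.84 to 6.17) 111 bp inside the gene. The paralogs JADE1 and JADE3, the partner KAT7 and the subunits ING4, ING5 and MEAF6 had no peak assigned. At a q of at most 1e-05 the list kept 3 genes, JADE2, KAT6A and KAT6B, beside 5.51% of all protein-coding genes. Among peaks at or above the median fold it held JADE2 alone, beside 5.03%. JADE2 itself was chosen for its peaks.

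**Figure D4:**
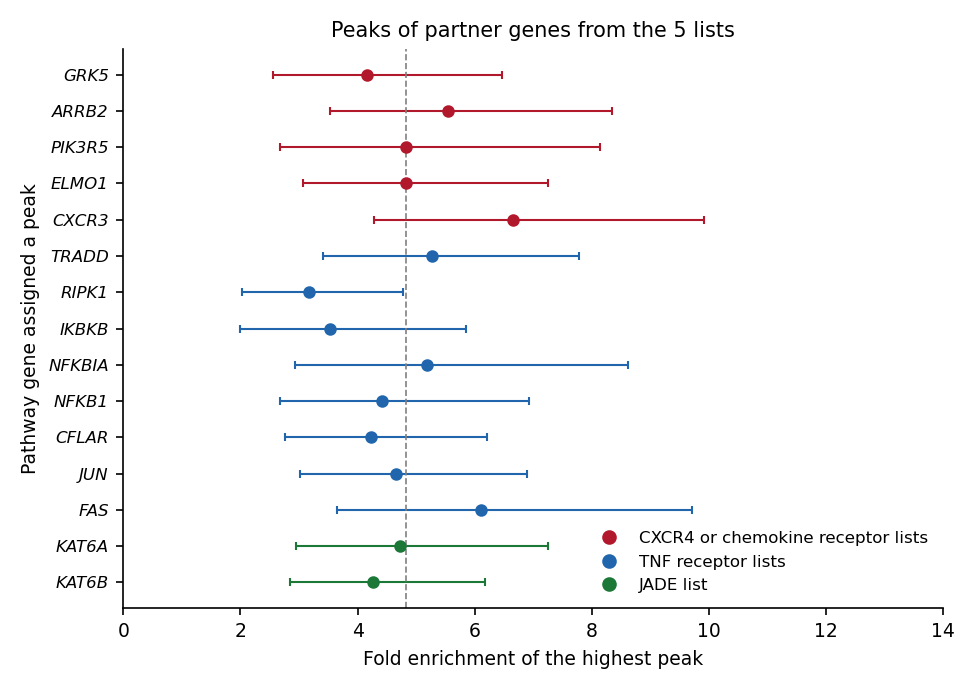
Fold enrichment (horizontal axis) of the highest peak of each of the 15 partner genes with a peak (1 row per gene), coloured by the gene it partners. Bars are 95% Poisson intervals and the dashed line is the list median of 4.82; 14 of the intervals reach it, and RIPK1 lies below.

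The windows printed above were searched on both strands, together with the other 7 of the 3 genes, for 12 short motifs and for 1 more added after the sequences were seen. Some windows of the same gene overlap one another. The GC box GGGCGG, bound by SP factors, was in 7 of the 10 windows, against 45.0% of all windows. Of the 3 of these windows that overlapped a peak, 2 held the GC box, against 73.5% of all 1564 such windows. Within peak bases it occurred 3 times at CXCR4, starting 135, 130 and 70 bases before the transcript start, and once at JADE2, 213 bases before it. The first pair at CXCR4 shares a base. The CCAAT box, searched as CCAAT, was in 3 of the 10 windows (34.6% of all). Inside a peak it stood 151 bases before the start of TNFRSF1A, and 30.7% of all windows that overlapped a peak hold one. It was the only one of the 13 motifs found in the TNFRSF1A window. The TATA box TATAAA stood 30 bases before the start of CXCR4, where the sequence in lower case begins, just outside the peak. It is held by 11.5% of all windows and 4.35% of those that overlapped a peak. The letters GCGCATGC, part of the palindrome bound by NRF1, were the motif added later. They stood in the CXCR4 peak 59 and, on the other strand, 57 bases before the start. These letters are in 3.05% of all windows and 5.05% of those that overlapped a peak.

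The GATA core AGATAA, the letters read by GATA2, was in 2 of the 10 windows, against 10.3% of all windows. Both were from JADE2 and held 1 shared site outside the peaks. Of the 3 windows that overlapped a peak, 0 held the GATA core, against 4.67% of all 1564 such windows. The core ACAAGATA of the first MECOM zinc finger domain, which overlaps the GATA core in its last letters, was in none of the 10 windows and in 0.461% of all. The core GAAGATGAG of the second domain was also in none, and in 0.347% of all. The ETS core CCGGAAG was in the last JADE2 window alone (10.3% of all windows) and the E-box CACGTG in 3 windows of JADE2 (7.26% of all), of which 2 share a site. The letters TGCGCA, another short NRF1 core that is not contained in GCGCATGC, were in 1 JADE2 window, outside the peak. They are in 8.24% of all windows and 11.9% of those that overlapped a peak. The AP-1 motif TGANTCA (7.71% of all) and the YY1 core AAGATGGC (2.89%), which overlaps the second MECOM core in 6 letters, were in none of the 10. Also in none was GGGANTTCC (1.85%), 1 form of the NF-kappaB site. Longer forms of that site were not searched. A match or its absence in these letters says nothing about which factor was bound, and 6 of the 9 peaks lay outside all windows.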

How the data were processed

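ChIP-seq with the AM tag antibody was done in HEK293T cells on chromatin cut with micrococcal nuclease and sonication, per the labels' protocols. Per the submitters' processing notes, which give no role or order, the build was hg38 and the tools were HOMER 4.10, deepTools (versions 3.5.1.0.0 and 3.3.2.0.0), ChIPseeker 1.18.0, MACS2 version 2.1.1.20160309.6 and Bowtie2 2.4.2. Since the deposited table lacks a header, the meaning of each column was taken from its values. The deposited fold is a ratio over local background. The deposited −log10 p and q values and score are the authors' own for each peak. Another deposited column is the distance to the gene start. Of 3465 lines, 3 repeat a peak with another gene, and 43 of the 3462 peaks have no gene. Columns tied to no group numbered 0.

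Fragments and background were worked out from fold and −log10 p, taking fold as fragments plus 1 over background plus 1 and p as a Poisson tail, as MACS2 usually computes them, and finding the whole number of fragments that gives both, to within 0.001 (a share of 1e-05 above 1000), for all 3462 peaks. Intervals are 95% Poisson intervals (exact) of the fragment number, take the background as fixed and cover counting error only. They do not allow for the choice of the highest point of a peak. The total depth is unknown. Of 2285 symbols, 2248 matched RefSeq genes on GRCh38.p14, 47 by an older symbol. Both reconstruction and motif search were checked on data with known answers.

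The 3 genes and all lists were chosen with earlier results of these data known. Named were the 3 genes, every list gene with a peak (at most 8 a list), genes with a peak within 100000 bp and the 3 most like genes for each. CHD4, SEC24A, DESI2, LINC01987 and POU3F2 were named after their values were seen. Alternatives were a q of at most 1e-05, peaks at or above the median fold, merged neighbours, a gene span widened by 1000 bp, −log10 q for fold, 1 place class and other distances. Python 3.11.15, pandas 2.3.3, numpy 2.4.6, scipy 1.17.1 and matplotlib 3.10.9 were used.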

Additional observations from a re-analysis of the deposited data

How the results depend on the processing

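No paired analysis was possible because only the WT list, from 1 library, was analysed. Of 50 alternative values, 32 stayed within 1.5 times a count or within the error of a value, and 18 moved. The 3 peaks of CXCR4 became 1 at the stricter q, 1 among peaks at or above the median fold and 1 with merged neighbours. The share of genes with 3 or more peaks, 1.09%, became 0.567%, 0.488% and 0.479% under the same settings. The share of protein-coding genes with a peak, 9.92%, became 5.51% with the q limit of 1e-05, 5.03% among the higher peaks and 13.7% with the widened span. Counting the 3 genes themselves, the CXCR4 signalling list went from 5 to 3 at the stricter q and the chemokine receptor list from 2 to 1 with the widened span. The TNF receptor 1 list went from 8 to 4 with the q limit and to 3 with the fold limit, and the JADE list from 3 to 1 among the higher peaks. The first 2 settings keep fewer peaks by construction. The highest peak was at or above 91.4% of the list by fold for CXCR4 and 89.9% by −log10 q, and 89.3% and 87.3% for TNFRSF1A. For JADE2 it was 87.1%, and 88.3% among peaks inside a gene. The genes were chosen by the fold of their highest peak, so high shares were fixed in advance. The 5 of 9 peaks within 1000 bp became 9 within 10000 bp, and 7 by the nearest RefSeq start, a setting chosen after seeing the data. With 14 to 22 fragments at a peak, the intervals overlapped and the order of the peaks was not tested.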

Other observations

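The start windows of the 3 genes under a peak differed in their content of CpG, the dinucleotide that gathers in CpG islands. The TNFRSF1A window held 4 CpG in 300 bases with 55.7% G and C, while that of CXCR4 held 27 (66.7%) and that of JADE2 34 (70.7%). Over all RefSeq windows the median was 14 CpG and 58.7% G and C, and over the 1564 windows that overlapped a peak 27 CpG and 66.3%. A count of at most 4 CpG, a limit taken from TNFRSF1A after its value was seen, occurred in 29.6% of all windows and in 12 of those that overlapped a peak (0.767%). The background at the TNFRSF1A start peak, 1.70 fragments, was the lowest of the list, as it was at the first JADE2 peak. What part the sequence or the background has in the peak was not tested.

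With the gene span widened by 1000 bp, JAK3 and TAB2 each held 1 peak, although neither was assigned one. JAK3 encodes a kinase of cytokine receptor signalling and TAB2 an adaptor of the kinase MAP3K7 in TNF signalling. They were named after their values were seen.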
